A study of Mus musculus with 16 samples.

Results

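The 6 libraries labelled CA1 were compared with the 5 labelled DG (dentate gyrus), which are 11 of the 16 bulk RNA-seq libraries of the series and were chosen by their subregion label alone. All came from the dorsal hippocampus of adult ArcCreERT2::eYFPflx mice on a C57BL/6 background, animals that carry an Arc-driven inducible Cre and a floxed eYFP reporter. Of the CA1 libraries, 3 came from trained mice, which learned to avoid a shock zone in a rotating arena, and 3 from untrained mice, which met the same rotating arena without shock. Of the DG libraries, 3 came from trained and 2 from untrained mice. All animals were killed after a retention test, and the microdissected pieces of each subregion were pooled within an animal. The comparison asks which transcripts differ between CA1 and DG whatever the training, so training was an additive term, and each training group was then tested alone.

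CA1 and the dentate gyrus are both principal cell fields of the hippocampus but hold different neurons. The dentate gyrus is packed with granule cells, which receive the input from the entorhinal cortex and send mossy fibres to CA3. CA1 holds the pyramidal cells that read CA3 through the Schaffer collaterals and form the main output of the hippocampus. Prox1, a homeobox factor that specifies and maintains granule cells, and Dsp, a desmosomal protein, are used to mark granule cells. Wfs1 and Fibcd1 mark CA1 pyramidal cells.

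Values are the normalized counts deposited for each library, and a difference is CA1 minus DG of log2(value + 2). A gene is called where limma gives an adjusted p under 0.05. The sums of the normalized counts ran from 7607330 to 7950550 per library. From 7567 to 9759 of the 24972 genes were at 0 in the 3 trained CA1 and 2 untrained DG libraries, against 3124 to 5944 in the 3 untrained CA1 and 3 trained DG libraries. Within each training group, a set with many genes at 0 therefore meets a set with few. This split cannot be told apart from a difference between the training groups in the CA1 to DG difference. The Xist value was 7601 to 19318 in the trained and 25.5 to 52.4 in the untrained libraries of both subregions, and within trained mice all CA1 libraries were above all DG libraries. The value of the Y-linked Ddx3y was 9.09 to 101 in trained CA1 and 1.66 to 255 in trained DG. It was 484 to 553 in untrained CA1 and 448 to 500 in untrained DG. Trained DG replicate 3 had both an Xist value of 7601 and a Ddx3y value of 255. The study's methods give mice of both sexes in each training group, yet no untrained CA1 or DG library had a high Xist value. Training thus ran together with these sex-linked values, and the reason was not tested.

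Over both training groups together, no marker of granule cells was called between the libraries labelled CA1 and DG. Prox1, on chromosome 1 from 190118035 to 190170714 (GRCm38), had values of 3483, 3618 and 3534 in trained CA1 and 3669, 3861 and 3052 in untrained CA1. In DG it had 3365, 3367 and 3292 in trained and 4118 and 4183 in untrained mice. Trained CA1 lay above trained DG and untrained CA1 below untrained DG, so the order of the subregions turned with training. The log2 difference of Prox1 was -0.06, with a 95% interval from -0.19 to 0.07. Dsp had values of 2060 to 2124 in trained CA1, 1608 to 2061 in untrained CA1, 1871 to 2060 in trained DG and 2234 and 2686 in untrained DG, with no overlap within either training group and opposite directions. Its log2 difference was -0.14, with a 95% interval from -0.34 to 0.07. Of the 22 granule cell markers tested, none passed limma's threshold and 1 reached an unadjusted p under 0.05 with the higher level in DG, against 16.7% of all genes at that level in either direction. Within a training group the opposite signs do not cancel: 5 of the 22 were called higher in CA1 in trained mice (median 0.10, against 3.47% of all genes), 3 were called higher in DG in untrained mice (median -0.19, against 0.909%), and the interaction was called for 7. The trained count was 0 in the fit of all 16 libraries, and the untrained count was 0 without CA1 untrained replicate 1 and 8 with a block for libraries of the same training label and number. Their summed value was 26985 to 33003 over the 6 CA1 and 28690 to 35578 over the 5 DG libraries. For all 22 the 95% interval of the log2 difference lay between -1 and 1, and the median log2 difference was -0.02. Granule cell markers at the DG level in the CA1 libraries go against the labels, so the libraries are called by their labels without a claim about the tissue they hold. The names CA1 and DG below are those of the labels.

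Some markers of CA1 pyramidal cells were called higher in CA1 in each training group. Wfs1, the wolframin gene on chromosome 5 from 36966104 to 36989205, had values of 746, 1009 and 1663 in untrained CA1 and 472, 619 and 681 in trained CA1. In DG it had 554, 304 and 420 in trained and 385 and 558 in untrained mice. Every untrained CA1 library was above every DG library, while the trained CA1 libraries overlapped them. The log2 difference of Wfs1 was 0.81 ± 0.28 (SE) and was not called (limma adjusted p = 0.19). Fibcd1, a membrane receptor that binds acetyl groups, had values of 1250, 921 and 1417 in untrained CA1 and 409, 504 and 502 in trained CA1. In DG it had 476, 417 and 679 in trained and 578 and 406 in untrained mice, so only the untrained CA1 libraries lay apart. Fibcd1, Mpped1 and Pou3f1 had log2 differences of 1.28, 1.08 and 0.98 in untrained mice, and none of the 3 was called in either training group. Across the 17 CA1 markers the median log2 difference was 0.53, with 15 above 0. The median was 0.98 in untrained mice, where 6 markers were called, and 0.16 in trained mice, where 2 were. Of all genes, 0.68% were called higher in CA1 in untrained and 3.47% in trained mice. The untrained count was 0 without CA1 untrained replicate 1 and 13 with a block for libraries of the same training label and number, and the trained count was 0 in the fit of all 16 libraries.

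**Figure D1:**
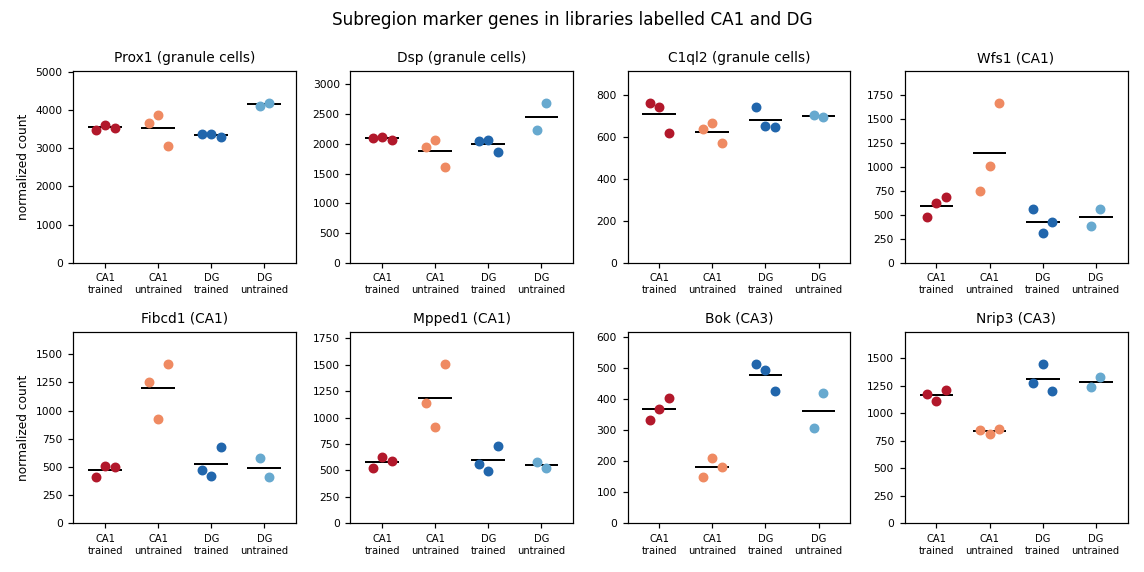
Normalized count (linear axis from 0) of 3 granule cell, 3 CA1 and 2 CA3 marker genes in each library. Points are libraries and lines are group means. The CA1 and DG libraries overlap for Prox1, Dsp and C1ql2 when the training groups are pooled, while Wfs1, Fibcd1 and Mpped1 are highest in untrained CA1.

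Over both training groups together, 2 CA1 markers passed the test, Ndst4 (0.31 ± 0.08, SE, limma adjusted p = 0.042) and Zdhhc2 (0.53 ± 0.13, limma adjusted p = 0.040). The background is low: 357 of the 14496 genes tested were called, or 2.46%, with 1.28% called higher in CA1 and 1.19% called higher in DG. Of 15 markers of CA3 pyramidal cells tested, 4 were called higher in DG and none higher in CA1, and the median log2 difference was -0.30. Bok, a BCL2 family gene, had values of 334, 369 and 403 in trained CA1 and 148, 210 and 183 in untrained CA1, against 516, 496 and 427 in trained DG and 307 and 421 in untrained DG. The subregions did not overlap within either training group, and Bok was called higher in DG in each group alone. Its log2 difference was -0.66 ± 0.14 (SE, limma adjusted p = 0.024). Nrip3, Socs2 and Sv2b, a synaptic vesicle glycoprotein, were the other CA3 markers called. Between untrained CA1 and trained DG, 10 of the 15 were called higher in DG (median -0.64), while between trained CA1 and untrained DG, the libraries with many genes at 0, none of 14 was called by limma, 9 were above 0 and the median was 0.03. In the latter libraries Bok and Sv2b differed by 0.03 and 0.05. Among all genes, 976 of 13848 were called higher in DG in the former contrast and 66 of 13639 in the latter. In the fit with that block, none of these 6 CA1 and CA3 markers passed (limma adjusted p from 0.087 to 0.128). Without 1 library, Nrip3 passed in all 11 fits and the other 5 lost the call in at least 1, with an adjusted p of up to 0.105 for Ndst4 without DG untrained replicate 3.

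Differences between the subregions were small. Of the 357 genes called, 185 were higher in CA1 and 172 in DG, and 43 had a log2 difference of at least 1 in size, 42 of them higher in CA1. The median size of the difference over all genes tested was 0.11. The count fell to 99 with the replicate number within a training group as a block, a fit that rests on the 5 numbers with both subregions. No label says that a number marks 1 mouse. It also fell by over 1.5 times when 1 library was left out, to 176 without DG trained replicate 2, 183 without DG untrained replicate 3, 195 without CA1 untrained replicate 2, 212 without CA1 untrained replicate 1, 220 without DG trained replicate 1, 224 without CA1 trained replicate 2 and 225 without CA1 trained replicate 3. In 362 genes, or 2.5% of those tested, the 6 CA1 and 5 DG libraries did not overlap.

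The training groups gave different pictures. In trained mice 730 of 13619 genes were called (5.36%), 472 higher in CA1 and 258 in DG. In untrained mice 222 of 13978 were called (1.59%), 95 higher in CA1 and 127 in DG. The untrained count was 7 without CA1 untrained replicate 1, 122 without CA1 untrained replicate 2 and 348 without DG untrained replicate 1. The balance turned to 122 higher in CA1 and 45 in DG without DG untrained replicate 3, and to 286 and 259 with the block. In trained mice the count was 330 without DG trained replicate 1, 331 without DG trained replicate 3 and 451 without CA1 trained replicate 2. The block raised the untrained count to 545. In all, 34 genes were called in both groups, 21 with the same direction and 13 with the opposite one. Across the 13487 genes tested in every fit, the log2 differences of the 2 groups had a Pearson r of -0.003, and 0.26 over the 10746 of them with a mean value of at least 50. These are correlations across genes, which are not independent replicates, and the untrained and trained values share no library. The interaction was called for 629 of 14496 genes (4.34%).

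**Figure D2:**
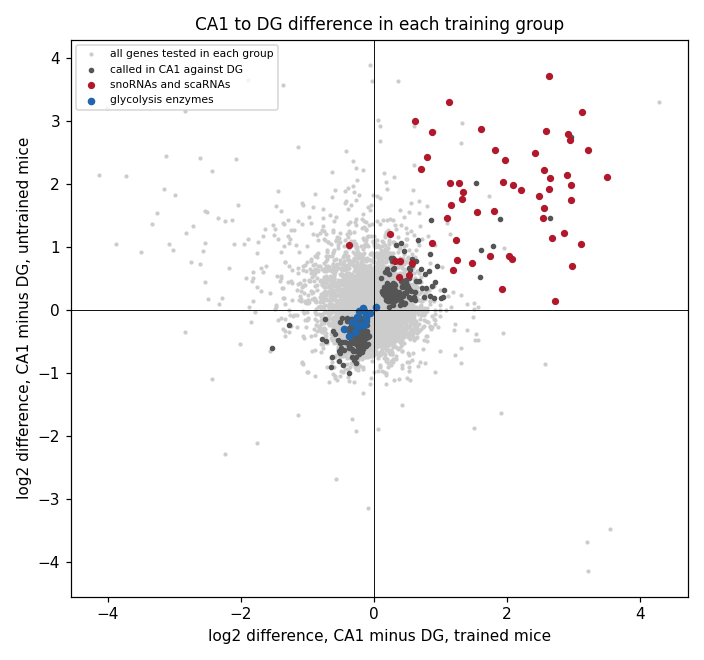
Log2 difference, CA1 minus DG, in trained mice (x axis) and untrained mice (y axis) for the genes tested in each group. Most genes scatter without a common direction, nearly all snoRNAs and scaRNAs (red) lie at the upper right, and most glycolysis enzymes (blue) lie below and left of 0. Dark grey marks genes called over both groups.

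Small nucleolar RNAs gave the largest differences. They guide chemical modification of ribosomal and small nuclear RNA: C/D box members guide methylation of the ribose, H/ACA box members guide pseudouridine formation, and scaRNAs act in Cajal bodies. Most are cut from introns of other genes. Of the 119 listed, 78 were tested. All 78 had a log2 difference above 0, with a median of 1.68 against -0.01 for all other genes. A gene was tested with a value of at least 10 in any 2 libraries, so low snoRNAs could enter through the libraries where they were high. Filtered on untrained CA1 and trained DG alone, 50 were tested, 42 were above 0 and the median was 0.37. The direction shared by all 78 may therefore rest in part on the filter. Of the 78, 36 were called higher in CA1 and none in DG, against 1.28% of all genes called higher in CA1. They were 33 of the 42 genes that were called higher in CA1 by at least 1 on the log2 scale. By class, 24 of 43 C/D box, 11 of 29 H/ACA box and 1 of 6 scaRNA genes were called. Of those called in both training groups, Snord12, Snord67, Snord110 and Snord17 are printed, together with Rnu73b, a C/D box RNA that was also called in both groups but whose symbol keeps it out of the counts above. They are written with the C box (TGATGA) and D box (CTGA) in capitals, since those short motifs define the class:
Snord12: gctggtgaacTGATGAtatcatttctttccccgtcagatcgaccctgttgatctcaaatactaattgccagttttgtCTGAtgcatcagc
Snord67: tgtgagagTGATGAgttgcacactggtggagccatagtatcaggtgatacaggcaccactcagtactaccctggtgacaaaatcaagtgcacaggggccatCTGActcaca
Snord110: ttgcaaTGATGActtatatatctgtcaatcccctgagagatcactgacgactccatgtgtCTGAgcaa
Snord17: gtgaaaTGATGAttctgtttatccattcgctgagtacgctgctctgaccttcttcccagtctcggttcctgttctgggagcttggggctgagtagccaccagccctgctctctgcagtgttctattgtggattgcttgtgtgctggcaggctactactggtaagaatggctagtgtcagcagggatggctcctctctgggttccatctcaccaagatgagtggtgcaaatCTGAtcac
Rnu73b: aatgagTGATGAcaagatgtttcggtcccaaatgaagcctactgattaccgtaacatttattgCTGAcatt

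All 5 come from the GENCODE transcripts of GRCm38 and are written 5′ to 3′ on the strand of the RNA. Snord12 lies on chromosome 2 from 167065276 to 167065365 in the plus direction, inside the noncoding gene Zfas1. Snord67 is on chromosome 2 from 91596070 to 91596180 inside Ckap5, and Snord110 is on chromosome 2 from 130275506 to 130275573 inside Nop56, a gene for a core protein of the C/D box particle. Rnu73b is on chromosome 3 from 86140618 to 86140688 inside the ribosomal protein gene Rps3a1, and Snord17 is on chromosome 2 from 144265979 to 144266216 inside Snx5, both in the minus direction. Both boxes, the C box near the 5′ end and the D box near the 3′ end, were found in 29 of the 43 C/D box snoRNAs tested and in 71.4% of the 98 annotated C/D box genes. None of the 27 H/ACA snoRNAs that were tested and matched held both. A match is a description of the sequence only.

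Snord12 had values of 305, 108 and 237 in trained CA1, 33.0, 60.2 and 20.1 in untrained CA1, 25.9, 35.6 and 32.9 in trained DG, and 2.34 and 3.96 in untrained DG. Trained CA1 was highest and untrained DG lowest, and the untrained CA1 and trained DG libraries overlapped. Its log2 difference was 2.703 ± 0.27 (SE, limma adjusted p = 7.06e-05). Rnu73b had values of 158, 34.5 and 104 in trained CA1 and 32.3, 31.3 and 10.3 in untrained CA1. In DG it had 5.70, 8.73 and 13.9 in trained and 2.33 and 0.969 in untrained mice, so 1 untrained CA1 library lay among the DG libraries. The log2 difference of Rnu73b was 2.87 ± 0.37 (SE, limma adjusted p = 0.00043). Snord67 differed by 2.15 and Snord110 by 2.53, and Snord110 was the one of the 5 whose 6 CA1 libraries were all above its 5 DG libraries. With the replicate number as a block these also stayed called. Snord17, the longest of the 5 at 238 bases and the most abundant, differed least, by 0.44.

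**Figure D3:**
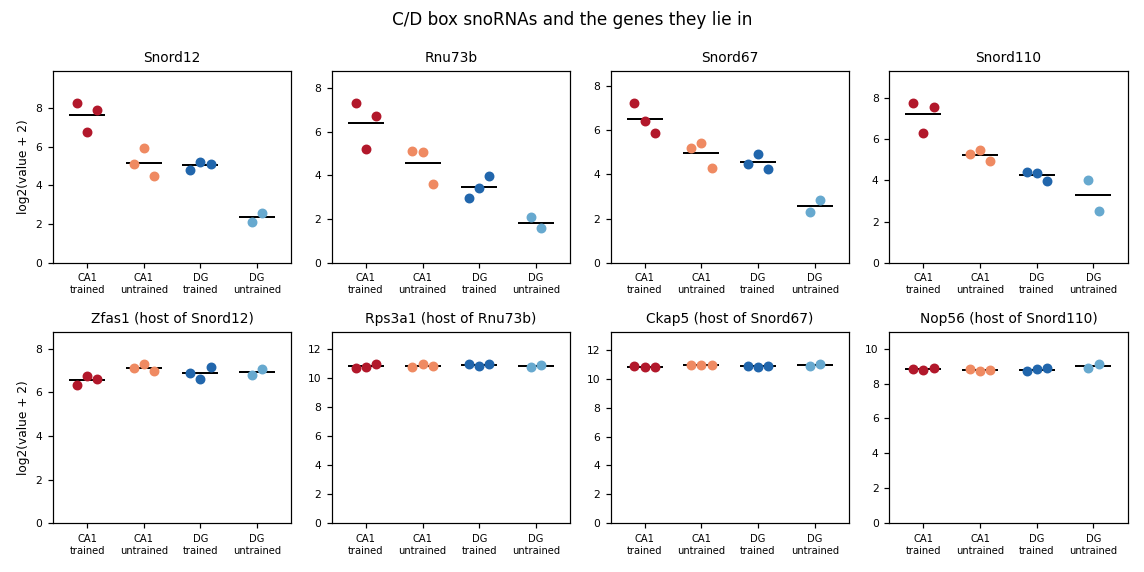
log2(value + 2) of 4 C/D box snoRNAs (upper row) and of the genes they lie in (lower row) in each library. Points are libraries and lines are group means. The snoRNAs run from highest in trained CA1 to lowest in untrained DG, with the 2 middle groups overlapping for each but Snord110, while the host genes overlap between the subregions.

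The genes that hold snoRNAs were tested too. Of the 58 host genes tested, none was called higher in CA1 and 3 were called higher in DG, against 1.28% and 1.19% of all genes. At so low a share, a count of none in CA1 says little. The median log2 difference of the host genes was -0.03 with 22 above 0. Zfas1 had values of 78.8, 107 and 95.9 in trained CA1, 135, 157 and 125 in untrained CA1, 117, 94.5 and 140 in trained DG and 107 and 131 in untrained DG. Zfas1 overlapped between the subregions.

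The snoRNA values were also set beside the split of libraries by genes at 0, and its part in them was not tested. Between the 3 trained CA1 and 2 untrained DG libraries, which both have many genes at 0, 48 of 77 snoRNAs and scaRNAs were called higher in CA1, with a median log2 difference of 2.94. Between the 3 untrained CA1 and 3 trained DG libraries, with few genes at 0, 2 of 50 were called and the median was 0.37, with 42 above 0. Of all genes, 143 of 13639 were called higher in CA1 in the former contrast and 821 of 13848 in the latter. In both of these contrasts training differs together with subregion and cannot be told apart from it. Within trained mice 44 of 63 were called higher in CA1 and 1 higher in DG (median 1.97), against 3.47% of all genes called higher in CA1. Within untrained mice 7 of 58 were called higher in CA1, against 0.68% of all genes, and all 58 were above 0 (median 1.78). The untrained count of 7 was 0 without CA1 untrained replicate 1 and 32 without CA1 untrained replicate 3. The summed snoRNA value was 20648, 12831 and 16104 in trained CA1, 11788, 14128 and 5272 in untrained CA1, 8062, 6519 and 6788 in trained DG and 3160 and 4766 in untrained DG. The count of 36 fell to 20 with the replicate number as a block, to 1 in a fit with no training term, and rose to 51 without robust estimation.

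Meg3, Neat1, Miat and Snhg11 were among the abundant transcripts called higher in CA1. Meg3, an imprinted maternally expressed transcript on chromosome 12 from 109541001 to 109571726, had values of 18012, 19145 and 17943 in trained CA1 and 16068, 17958 and 17246 in untrained CA1, against 12614, 14925 and 11803 in trained DG and 14468 and 11534 in untrained DG. All 6 CA1 libraries were above the 5 DG libraries. The log2 difference of Meg3 was 0.45 ± 0.07 (SE, limma adjusted p = 0.0049). Snhg11, a small nucleolar RNA host gene, had values of 6431 to 7308 in the 6 CA1 libraries and 4628 to 5652 in DG. It differed by 0.44 ± 0.05 (limma adjusted p = 0.00018) and was called in both training groups, at 0.41 and 0.46. Neat1, the scaffold RNA of paraspeckles, differed by 0.55 and Miat by 0.55, with no overlap for either. All 4 stayed called with the replicate number as a block and in each of the 11 fits that left out 1 library.

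Enzymes of glycolysis leaned the other way. Of 17, 7 were called higher in DG, 16 had a negative log2 difference and the median was -0.19, with -0.19 also in each training group alone, against 1.19% of all genes called higher in DG. In trained mice 7 were called higher in DG and in untrained mice 2, or 0 without CA1 untrained replicate 1. Of all genes, 1.89% were called higher in DG in trained and 0.909% in untrained mice. Eno1, the enolase that makes phosphoenolpyruvate, had values of 4298, 4470 and 4394 in trained CA1, 3498, 3383 and 3901 in untrained CA1, 5417, 5834 and 5822 in trained DG and 4727 and 4864 in untrained DG. Every DG library was above every CA1 library. Its log2 difference was -0.39 ± 0.04 (SE, limma adjusted p = 7.06e-05), with -0.37 in trained and -0.42 in untrained mice. Aldoa, the aldolase that splits fructose bisphosphate, had 8840 to 8860 in trained and 7694 to 8077 in untrained CA1, against 10597 to 11009 in trained and 9653 and 10555 in untrained DG, a log2 difference of -0.31 ± 0.04 (limma adjusted p = 7.62e-05). Gapdh (-0.27), Tpi1 (-0.25), Gpi1 (-0.24), Pgam1 (-0.20) and Pkm (-0.17) were called too. The astrocyte isoform Aldoc, at 0.04, did not pass.

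**Figure D4:**
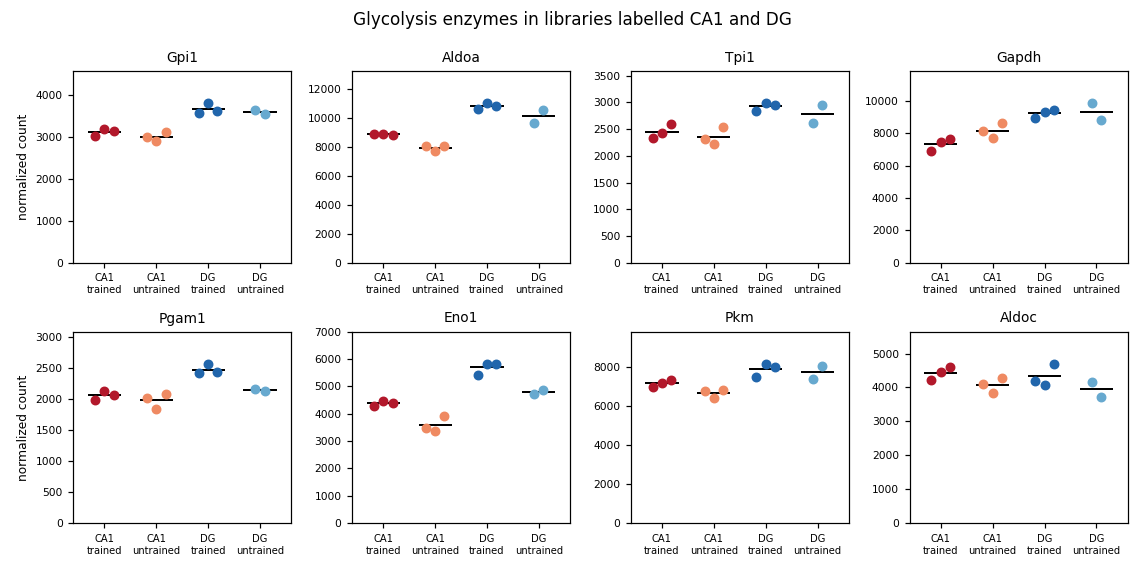
Normalized count (linear axis from 0) of 8 glycolysis enzymes in each library. Points are libraries and lines are group means. Every DG library is above every CA1 library for Eno1, Aldoa, Gpi1, Tpi1, Gapdh and Pkm, and Aldoc is level.

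With the replicate number as a block 5 of the 7 stayed called, and Pgam1 (limma adjusted p = 0.14) and Pkm (0.11) did not. Between trained CA1 and untrained DG alone, 1 of the 17 enzymes was called higher in DG and the median was -0.08. Between untrained CA1 and trained DG, 14 were called and the median was -0.31. Of all genes, 66 of 13639 were called higher in DG in the former contrast and 976 of 13848 in the latter. The promoters of the 7 called enzymes were searched for ACGTG on both strands, the core bound by hypoxia-inducible factors and also part of other factors' sites. RefSeq gives 12 promoters for the 7 genes in GRCm38, of which 5 hold a match, spread over 4 genes, against 19.6% of the 32851 mouse promoters of the same length. The matching promoters of Aldoa overlap each other, so the counts are a description and not a test of an excess. Gapdh and Pgam1 have a single promoter each, printed with the match in capitals. A match does not show that a factor binds.
Gapdh, chr6:125165724-125166023, minus strand: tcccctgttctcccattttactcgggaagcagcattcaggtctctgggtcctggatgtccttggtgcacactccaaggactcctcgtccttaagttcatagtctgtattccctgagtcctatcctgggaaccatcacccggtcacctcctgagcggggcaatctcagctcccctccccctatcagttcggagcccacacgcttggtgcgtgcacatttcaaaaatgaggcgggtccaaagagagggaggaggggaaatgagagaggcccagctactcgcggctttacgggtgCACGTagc
Pgam1, chr19:41911621-41911920, plus strand: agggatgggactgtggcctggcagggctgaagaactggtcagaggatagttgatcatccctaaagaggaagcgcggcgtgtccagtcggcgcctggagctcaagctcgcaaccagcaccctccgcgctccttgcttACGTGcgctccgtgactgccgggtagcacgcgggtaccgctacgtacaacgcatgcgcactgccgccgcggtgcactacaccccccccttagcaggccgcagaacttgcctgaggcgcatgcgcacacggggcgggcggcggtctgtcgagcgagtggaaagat

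Over both training groups, smaller shares of the ribosomal protein and respiration genes than of the glycolysis enzymes were called. As for those enzymes, the counts differed between sets of libraries. Of 82 cytosolic ribosomal proteins tested, 10 were called higher in DG and none in CA1, against 1.19% of all genes called higher in DG, with a median log2 difference of -0.10. Among them were Rpl29 (-0.48), Rpl12 (-0.37), Rpl35 (-0.36) and Rpl38 (-0.31). Of 79 oxidative phosphorylation subunits, 4 were called higher in DG and none in CA1, with a median of -0.11. Ndufb4, an accessory subunit of complex I, had 257 to 303 in CA1 and 340 to 402 in DG and differed by -0.40 ± 0.07 (limma adjusted p = 0.0052). Between untrained CA1 and trained DG, 17 of 80 ribosomal proteins and 32 of 77 oxidative phosphorylation subunits were called higher in DG, against 976 of all 13848 genes. Between trained CA1 and untrained DG, 11 ribosomal proteins were called higher in DG and 4 in CA1 (median -0.04). The median of the oxidative phosphorylation subunits turned to 0.04 there, with 47 of 79 above 0, 2 called higher in CA1 and none in DG. Of all 13639 genes tested between these libraries, 66 were called higher in DG and 143 in CA1. In trained mice 15 ribosomal proteins and 9 oxidative phosphorylation subunits were called higher in DG and none in CA1, against 1.89% of all genes called higher in DG there, and 3 and 1 in the fit of all 16 libraries. In untrained mice 4 ribosomal proteins were called higher in DG and 2 in CA1, and 1 oxidative phosphorylation subunit was called in CA1 and none in DG, against 0.68% of all genes called higher in CA1 and 0.909% in DG. In untrained mice the fit of all 16 libraries called 12 ribosomal proteins and 5 oxidative phosphorylation subunits higher in DG, and without CA1 untrained replicate 1 none of either list was called by limma. In the blocked fit 4 ribosomal proteins and 1 oxidative phosphorylation subunit stayed called.

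Genes called with no overlap, the same sign in each training group and a mean of at least 100 in the higher subregion numbered 60 on the CA1 and 81 on the DG side, and the 15 with the largest difference on each side are named, leaving out clone and predicted-gene symbols (5 on the CA1 and 1 on the DG side). Adgrl2, a latrophilin adhesion receptor of synapses, had the largest difference of those named on the CA1 side. It had values of 265, 232 and 216 in trained and 470, 331 and 442 in untrained CA1, against 163 to 191 in trained DG and 202 and 187 in untrained DG. No CA1 library fell among the DG ones. Its log2 difference was 0.70 ± 0.12 (limma adjusted p = 0.0073), and larger in untrained (1.07) than in trained mice (0.40), a difference of -0.67 (limma adjusted p for the interaction = 0.038). Podxl, Jrk, Adgrf5, Pcdhga10, Mid1, Pnpla3, Pltp, Ryr1, Tbrg3 and Epha10 followed with log2 differences from 0.64 to 0.36. The ryanodine receptor genes Ryr1 and Ryr3 differed by 0.41 and 0.29. In the blocked fit 8 of the 15 leading genes stayed called, and the other 7 (Adgrl2, Podxl, Pnpla3, Pltp, Ryr1, Tbrg3 and Epha10) had limma adjusted p from 0.052 to 0.102. Pcdhga10, Pnpla3, Pltp and Epha10 lost the call in at least 1 fit without 1 library, with adjusted p of up to 0.090.

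On the DG side, Tgoln2, Plagl1, Camk2n2, Kcnq5, Pdlim7, Rmnd1, Car4, Flrt3, Exph5, Stmn2, Npy2r, Ndufb4, Ak5, Kndc1 and Eno1 led, with log2 differences from -0.68 to -0.39. Kcnq5, a subunit of the M-type potassium channel, had 588 to 607 in trained and 357 to 537 in untrained CA1, against 746 to 1017 in trained and 613 and 639 in untrained DG. It differed by -0.54 ± 0.10 (limma adjusted p = 0.014). Stmn2, a microtubule regulator of growing axons, had 952 to 1347 in CA1 and 1354 to 1729 in DG, and differed by -0.42 ± 0.06 (limma adjusted p = 0.00045), with -0.33 in trained and -0.52 in untrained mice. Flrt3, a partner of latrophilins across the synapse, differed by -0.46 ± 0.07 and was called in both training groups. Camk2n2, an inhibitor of CaMKII, differed by -0.58 ± 0.10. In the blocked fit 9 of the 15 stayed called, and Tgoln2, Plagl1, Pdlim7, Rmnd1, Exph5 and Ak5 had limma adjusted p from 0.062 to 0.213. In fits without 1 library 7 of the 15 were always called, and Tgoln2, Plagl1, Kcnq5, Pdlim7, Rmnd1, Exph5, Ak5 and Kndc1 lost the call in at least 1, with limma adjusted p of up to 0.111 for Exph5 without DG untrained replicate 3. Cfl1, the actin-severing cofilin, and Ywhah, a 14-3-3 protein, lay outside the naming rule's leading genes and are named after their values were seen, since both were called in both groups, at -0.31 and -0.24.

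Among receptors, Gria3, an AMPA receptor subunit, was 0.22 higher and Grin2b, an NMDA receptor subunit, 0.20 higher in CA1. These were 2 of 17 such subunits, against 1.28% of all genes called higher in CA1. Gria3 had values of 2419 to 2682 in CA1 and 2022 to 2363 in DG, with no overlap. Gabra2, a GABA-A receptor subunit, had 907, 847 and 912 in trained and 1271, 1526 and 1436 in untrained CA1, against 721 to 793 in trained DG and 868 and 728 in untrained DG. The subregions overlapped at 1 trained CA1 and 1 untrained DG library. It differed by 0.51 ± 0.10 (limma adjusted p = 0.019). The peptide gene Npy (-0.37), its receptor Npy2r (-0.41), the somatostatin receptor Sstr3 (-0.35) and the serotonin receptor Htr4 (-0.29) were called higher in DG. Bcl11b, a zinc finger factor, Nr3c1, the glucocorticoid receptor, and Kcnj6 and Kcnk9, potassium channels, were 0.23, 0.19, 0.20 and 0.30 higher in CA1, and Rxfp1, the relaxin receptor, 1.12 higher. Rxfp1 was called in only 9 of the 23 alternative fits that tested it. Among guidance and adhesion genes, the guidance ligand Slit2, the netrin receptor Unc5c and the protocadherin Pcdh7 were higher in DG, and Cntnap5a and Adgrb1, a synaptic adhesion receptor, were higher in CA1. Most members of these lists were not called. Of 65 potassium channel subunits, 2 were called higher in CA1 and 1 in DG, and of 28 neuropeptide and hormone receptors 2 and 2. Of 30 netrin, Slit, Robo, FLRT, teneurin and latrophilin genes, 1 was called higher in CA1 and 3 in DG. Over all genes 1.28% were called higher in CA1 and 1.19% in DG. In the blocked fit Grin2b, Kcnk9, Npy2r and Adgrb1 stayed called, and the others named in this paragraph did not, with limma adjusted p from 0.060 to 0.155. In the 11 fits without 1 library Nr3c1 was called in 1, Npy in 2, Sstr3 in 3, and Htr4 and Rxfp1 in 4. Between trained CA1 and untrained DG alone Slit2 turned to 0.018.

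All 14 endothelial and mural markers had a log2 difference above 0, with a median of 0.39, and 3 were called, Cldn5 (0.70), Slco1a4 (0.59) and Abcb1a (0.47), which form the barrier's junctions and transporters. The summed value of the list was 2360 to 2553 in trained CA1, 2113 to 2362 in untrained CA1, 1515 to 1655 in trained DG and 1803 to 2449 in untrained DG. In trained mice 7 markers were called (median 0.59), against 3.47% of all genes called higher in CA1, and 3 in the fit of all 16 libraries. In untrained mice none was called by limma and the median was 0.07. Flt1, a VEGF receptor, differed by 1.15 in trained and 0.05 in untrained mice (limma adjusted p for the interaction = 0.00015). Ttr, which choroid plexus makes, had 2008, 63.0 and 62.2 in trained and 772, 863 and 621 in untrained CA1, against 41.2 to 177 in DG. Trem2, of microglia (-0.64), and Agt, of astrocytes (-0.45), were called higher in DG, and Col1a2, of meninges (0.69), higher in CA1. Each was the one call of its list: 8 of 15 astrocyte markers (median 0.01), 3 of 12 microglia markers (median -0.06) and 5 of 10 leptomeningeal markers (median 0.04) were above 0. In bulk tissue fewer cells of a type and less RNA per cell cannot be told apart. None of the 6 called genes of these lists passed with the replicate number as a block (limma adjusted p from 0.063 to 0.156) or in all fits without 1 library. The part of vessel and choroid plexus content in the results above was not tested.

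Some genes, chosen after their values were seen, had opposite signs of the CA1 to DG difference in the training groups. Rph3a, an effector of Rab3 on synaptic vesicles, had 4111, 4300 and 4277 in trained CA1 and 3682, 3913 and 3528 in trained DG, but 3606, 3805 and 3376 in untrained CA1 and 4484 and 4971 in untrained DG. It was higher in CA1 in trained mice (0.19) and higher in DG in untrained mice (-0.39), both called. Cplx2, a complexin that gates vesicle fusion, gave 0.15 and -0.24, and the granule cell markers Pdzd2 and Maml2 gave 0.24 and -0.55, and 0.28 and -0.44. Fabp7, of radial glia and astrocytes, and Nell1 went the other way, with -0.57 and 0.81, and -0.39 and 0.55. Shank3, a postsynaptic scaffold, had 2625, 2564 and 2367 in trained CA1 and 1698 to 1958 in trained DG, against 1364, 1316 and 1587 in untrained CA1 and 1698 and 1967 in untrained DG. It was called in trained mice (0.45) and not in untrained mice (-0.37, limma adjusted p = 0.062). Its interaction was 0.82 (limma adjusted p = 0.00022). Homer1, an activity-induced scaffold, was 0.50 higher in CA1 in untrained mice and -0.16 in trained mice. No immediate early gene of 38 tested was called over both groups by limma, and at an unadjusted p under 0.05 there were 3 higher in CA1 and 4 higher in DG, where 16.7% of all genes reached that level. Arc itself, whose promoter drives the Cre, had a log2 difference of 0.47 ± 0.20.

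**Figure D5:**
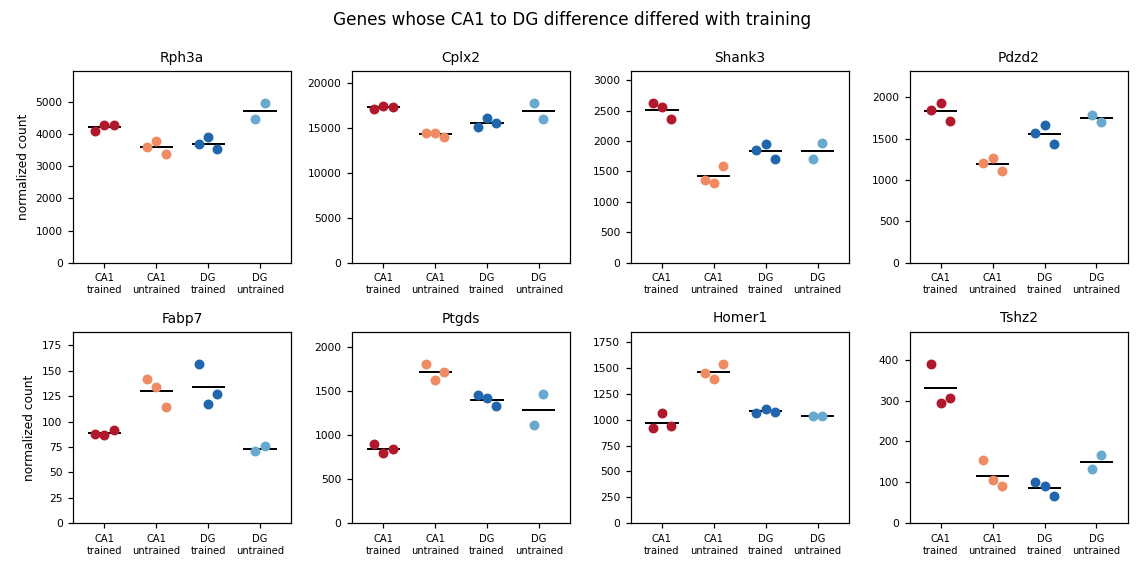
Normalized count (linear axis from 0) of 8 genes in each library. Points are libraries and lines are group means. For Rph3a, Cplx2, Shank3 and Pdzd2 the CA1 group is above DG in trained mice and below it in untrained mice, and for Fabp7, Ptgds and Homer1 the reverse holds. Tshz2 is highest in trained CA1.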

How the data were processed

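RNA from microdissected CA1, CA3 and DG of trained and untrained mice was sequenced by the authors after rRNA depletion, and the reads were mapped with STAR and quantified with Salmon, per the study's methods. The deposited signal is an estimated count normalized between libraries by the authors. Depth is unknown, since the values are not whole reads. The processing notes name GRCm38, and the labels give polyA RNA where the protocol gives rRNA depletion. Each symbol of the 24972 listed was used as deposited, 26 of them altered to dates.

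Genes with a value of at least 10 in at least 2 libraries (3 in trained mice) were tested on log2(value + 2), where the added 2 understates the change of low genes. limma 3.58.1 in R 4.3.3 was used with trend and robust estimation and Benjamini-Hochberg adjustment. CA1 and DG libraries with the same training label and number were taken as 1 animal, since the methods give 3 mice per training group with tissue pooled per animal and subregion, but no label states that numbers mark animals and their deviations from group means correlated by only 0.02 to 0.09. Of the libraries numbered untrained 1, CA3 had an Xist value of 10588, against 26.1 in CA1 and 25.5 in DG. The fit with this number as a block was an alternative, as were other filters, pseudocounts, scalings and models and leaving out each library. From each gene list up to 4 called members each way were named, with subregion markers whatever their result. Up to 15 genes per direction were named among called genes with the same sign in both training groups, no overlap of libraries and a mean of at least 100 in the higher subregion. The members, lists and tests were chosen with earlier results of these data known, and the snoRNA group after its values were seen. The script was tested on simulated data. No pair of libraries was identical. P-values measure the spread between these libraries. Some items are not reported here.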

Additional observations from a re-analysis of the deposited data

Results flagged for a closer look

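The CA1 to DG difference differed between trained and untrained mice in a test of the interaction for these named genes. The values are the log2 difference in trained mice minus that in untrained mice. They were 0.33 for Prox1, 0.47 for Dsp, 0.79 for Pdzd2, 0.72 for Maml2, 0.70 for Glis3 and 0.45 for Nrip3 among subregion markers. Among leading genes they were -0.67 for Adgrl2, 0.82 for Podxl, 0.55 for Adgrf5, 0.46 for Ryr1, 0.41 for Npy2r and 0.50 for Ak5. For Rpl29 the value was -0.60, for Gabra2 -0.57, for Olfm1 0.34, for Itpr1 -0.44 and for Unc5c 0.47. Flt1 gave 1.11, Homer1 -0.66, Tshz2 2.31, Shank3 0.82, Ptgds -1.16, Crym -1.47 and Ncald 0.49. Of the genes with opposite directions, Rph3a gave 0.59, Cplx2 0.40, Fabp7 -1.37, Nell1 -0.94, Stac2 0.81 and Nfic 0.68. All 30 pass limma's adjusted threshold, and the split of libraries by genes at 0 has the same composition as this interaction and cannot be told apart from it.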

How the results depend on the processing

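The count of genes called between CA1 and DG was 357. Fitting all 16 libraries together gave 594. The count was 99 with a replicate block (the number), 770 with the interaction in the model, 60 with no training term and 43 at a log2 difference of at least 1. Without 1 library it ranged from 176 to 426. Between untrained CA1 and trained DG alone it was 1797, and between trained CA1 and untrained DG alone 209, 2 alternatives chosen after seeing the data. In trained mice 730 became 2326 unfiltered and 284 with all 16 libraries, and 330 to 570 without 1 library. In untrained mice 222 became 337 unfiltered, 567 with all 16 libraries and 545 with the replicate block, and 7 to 348 without 1 library. The interaction count of 629 became 2547 unfiltered, 369 where every library had to reach 10, 342 where the mean had to reach 50 and 404 with all 16 libraries, and 313 to 670 without 1 library. The share higher in CA1 went from 51.8% to 42.1% with upper-quartile rescaling (38.1% against 48.2% for the interaction), and unfiltered from 64.7% to 24.1% in trained mice and from 48.2% to 17.9% for the interaction, whose share rose to 72.6% and 75.1% under the 2 stricter filters. Of the 85 named genes called, 41 were called in every fit without 1 library. A change of sign in which the gene was called in at least 1 of the 2 fits was found for 6 named genes between CA1 and DG: Shank3 (-0.37) and Ptgds (0.29) between untrained CA1 and trained DG, and Bok (0.032), Sv2b (0.050), Slit2 (0.018) and Ywhah (0.024) between trained CA1 and untrained DG. Genes called in neither fit, such as Rph3a, Fabp7 and Fibcd1, also changed sign in some fits. Causes were not tested. Depth is unknown and could not be weighed.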
